A study of Rattus norvegicus with 12 samples.

Results

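The genes described are 10 of the dual-specificity phosphatases that act on MAP kinases or are named with them, namely Dusp1, Dusp2, Dusp4, Dusp5, Dusp6, Dusp7, Dusp8, Dusp10, Dusp14 and Dusp16. They were chosen by gene symbol, and all 10 were found among the 18483 genes of the deposited tables. All 10 also passed the filter on low counts that kept 13967 genes for testing. The cells were neonatal rat ventricular myocytes (NRVMs), heart muscle cells isolated from newborn Sprague-Dawley rats and grown in medium with insulin, transferrin and selenium. They were transfected with siNeg, a negative control siRNA, or with siSlc39a2, an siRNA against the zinc importer Slc39a2, and were then left untreated or exposed to phenylephrine (PE), an alpha-adrenergic agonist that induces hypertrophy. This gave 4 groups of 3 samples each, named siNeg, siNeg PE, siSlc39a2 and siSlc39a2 PE. The labels give 36 h of PE. All 4 groups were transfected, so none shows untransfected cells, and the knockdown rests on a transient siRNA of 1 sequence in a primary culture. The samples of a group are given as independent biological replicates. The 2 siNeg groups and the 2 siSlc39a2 groups were compared for the effect of PE, and groups with and without siSlc39a2 were compared for the effect of the knockdown.

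MAP kinases are switched on by phosphorylation of a threonine and a tyrosine in their activation loop, and dual-specificity phosphatases switch them off by removing both phosphates. Many of these phosphatases are themselves transcribed in response to MAP kinase signalling, so they form a negative feedback loop. Dusp1, Dusp2, Dusp4 and Dusp5 are nuclear and inducible, and Dusp5 acts mainly on ERK. Dusp6 and Dusp7 are cytoplasmic and act on ERK. Dusp8, Dusp10 and Dusp16 act mainly on JNK and p38, the stress-activated MAP kinases. Dusp14 is a small atypical member that lacks the MAP kinase binding domain. In the heart, alpha-adrenergic stimulation activates ERK, JNK and p38, and these phosphatases limit the response. The data measure transcripts only and hold no phosphorylation.

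Total counts per sample were between 24065539 and 28603854. The counts are estimates in which a read that matches several genes is shared between them. Counts of 9 members were whole numbers in all 12 samples, whereas those of Dusp14 were whole in none, so reads of Dusp14 were shared with another gene and its values are uncertain. Slc39a2 itself had 50, 50 and 59 counts in siNeg and 21, 11 and 2 counts in siSlc39a2, and it had 95, 198 and 182 counts in siNeg PE and 31, 25 and 38 counts in siSlc39a2 PE. The targeted transcript was thus lower in every knockdown sample than in every matching control. Nppa, a marker of hypertrophy, was 24.8-fold higher with PE in siNeg cells and 23.5-fold higher in siSlc39a2 cells. Cardiomyocyte markers were abundant in all groups, as labelled, but fibroblast markers were present too. Summed CPM (counts scaled to the normalized library size) of 8 fibroblast markers were 11149 to 14247 in siNeg and 7388 to 9310 in siNeg PE, against 4151 to 4339 in siSlc39a2 and 2807 to 3822 in siSlc39a2 PE. Col1a1 made up most of this sum. The knockdown lowered 6 of the 8 (Col1a1, Col1a2, Dcn, Lum, Postn and Thy1) and raised Tcf21, both without and with PE (adjusted p below 0.05 in edgeR). Mean CPM in siNeg and siSlc39a2 were 1746 and 541 for Col1a2, 60.5 and 34.7 for Dcn, and 27.4 and 34.7 for Tcf21. Summed CPM of 8 cardiomyocyte markers were 34984 to 35301 in siNeg and 26104 to 28152 in siNeg PE, against 25063 to 26115 in siSlc39a2 and 20559 to 22420 in siSlc39a2 PE. Most of the difference in this sum was Myh6, at mean CPM of 15858, 8199, 7407 and 3672 in the same order of groups, whereas those of Tnnt2 were 5082, 5218, 5366 and 5770. In edgeR the knockdown lowered 4 of the 8 and raised none, both without and with PE. Without PE, DESeq2 gave 1 higher and 5 lower, and limma on log2(FPKM + 1) gave 3 higher and 1 lower. With PE, DESeq2 gave 0 higher and 4 lower, and limma gave 1 higher and 2 lower. Over all genes tested, 22.8% rose and 26.4% fell without PE in edgeR, and 29.2% rose and 28.1% fell with PE. All 8 genes of both lists had counts in every sample. Endothelial and macrophage markers summed to at most 28.4 CPM in any sample, and one of the 8 endothelial markers was at 0 in some samples. Smooth muscle and pericyte markers summed to medians of 7062, 7276, 4620 and 7008 CPM in the order of the 4 groups above. Des made up most of this sum, at mean CPM of 4634, 5295, 3379 and 5214, while Myh11 was at 12.2, 8.86, 7.29 and 8.79. Members of this list also moved in opposite directions. From siNeg to siNeg PE, mean CPM went from 666 to 239 for Tagln and from 27.9 to 166 for Cnn1. The part of these shifts in the results on the phosphatases was not tested. In such bulk samples, fewer cells of a type and less RNA per cell cannot be told apart.

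Levels of different genes were compared in FPKM, which is scaled to transcript length. In siNeg, Dusp5 stood far above the rest at 66.5 ± 4.03 FPKM (SD, n = 3), followed by Dusp1 at 24.8 ± 0.46 FPKM and Dusp7 at 20.8 ± 0.95 FPKM. The other 7 lay between 8.11 ± 0.53 FPKM (SD, n = 3) for Dusp14 and 0.747 ± 0.139 FPKM for Dusp2. The full order in siNeg was Dusp5, Dusp1, Dusp7, Dusp14, Dusp10, Dusp8, Dusp6, Dusp16, Dusp4 and Dusp2, and no neighbours in it overlapped. Dusp5 was the highest and Dusp2 the lowest member in all 4 groups. In siNeg PE the order below Dusp5 was Dusp7, Dusp1, Dusp8, Dusp14, Dusp6, Dusp4, Dusp16, Dusp10 and Dusp2, with overlap between Dusp6 and Dusp4 and between Dusp4 and Dusp16. In siSlc39a2 it was Dusp7, Dusp1, Dusp6, Dusp8, Dusp10, Dusp16, Dusp14, Dusp4 and Dusp2, with overlap between Dusp6 and Dusp8 and between Dusp8 and Dusp10. In siSlc39a2 PE it was Dusp7, Dusp8, Dusp1, Dusp6, Dusp16, Dusp4, Dusp14, Dusp10 and Dusp2, with overlap between Dusp8 and Dusp1 and between Dusp16 and Dusp4.

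The summed level of all 10 phosphatases was 142 ± 3.50 FPKM (SD, n = 3) in siNeg and 148 ± 7.60 FPKM in siNeg PE, against 134 ± 4.65 FPKM in siSlc39a2 and 114 ± 3.08 FPKM in siSlc39a2 PE. Dusp5 made up 46.9% ± 1.80 (SD, n = 3) of this sum in siNeg and 45.4% ± 4.71 in siNeg PE. Its share was 36.6% ± 0.54 (SD, n = 3) in siSlc39a2 and 22.9% ± 1.08 in siSlc39a2 PE. Without Dusp5 the mean sum was highest in siSlc39a2 PE, with levels of 75.2 ± 1.44, 80.4 ± 2.84, 84.7 ± 2.22 and 87.6 ± 1.24 FPKM (SD, n = 3) in the same order. Single samples of siSlc39a2 and siSlc39a2 PE overlapped in this sum. The other 9 together thus had their highest mean in the group where the sum over all 10 was lowest. FPKM are not scaled to the normalized library size as CPM are, which limits such comparisons between groups. Dusp7, for example, had a mean of 20.8 FPKM in siNeg and 22.6 in siSlc39a2, but 68.6 and 67.0 CPM. The part of this scale in the sums was not tested.

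**Figure D1:**
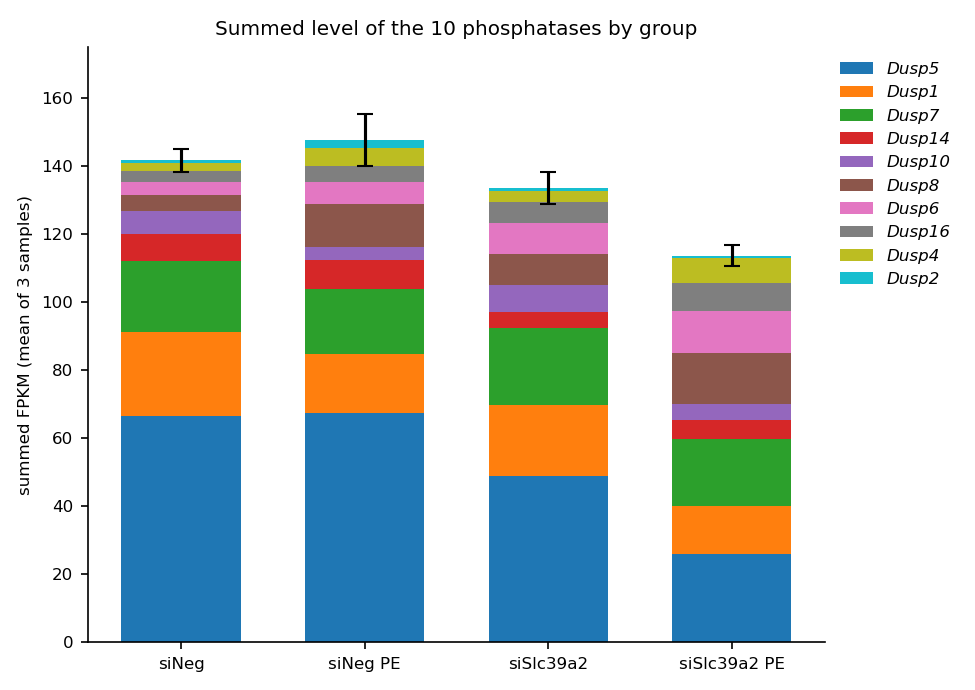
Summed FPKM of the 10 phosphatases by group, each colour a gene at its mean over 3 samples and each error bar the SD of the sum over 3 samples. The Dusp5 part shrinks from 66.5 FPKM in siNeg to 26.1 FPKM in siSlc39a2 PE, while the Dusp6, Dusp8, Dusp16 and Dusp4 parts widen.

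The phosphatases did not move as a block in any comparison. PE in siNeg cells raised 5 of the 10 (Dusp2, Dusp4, Dusp6, Dusp8 and Dusp16) and lowered 3 (Dusp1, Dusp7 and Dusp10) at an adjusted p below 0.05 in edgeR's quasi-likelihood test, where 24.0% of all genes tested rose and 25.7% fell. In siSlc39a2 cells, PE raised 5 (Dusp4, Dusp6, Dusp8, Dusp14 and Dusp16) and lowered 3 (Dusp1, Dusp5 and Dusp10), against 30.7% and 29.3% of all genes tested. The knockdown without PE raised 4 (Dusp4, Dusp6, Dusp8 and Dusp16) and lowered 3 (Dusp1, Dusp5 and Dusp14), against 22.8% and 26.4%. With PE it raised 4 (Dusp4, Dusp6, Dusp10 and Dusp16) and lowered 4 (Dusp1, Dusp2, Dusp5 and Dusp14), against 29.2% and 28.1%. Median log2 fold changes of the 10 members in these comparisons were 0.24, 0.20, 0.05 and 0.13, beside -0.01, 0.01, -0.02 and 0.01 over all genes tested. The PE comparisons and the knockdown comparisons share samples, so their counts are not independent of each other.

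Changes past an absolute log2 fold change of 1 were fewer. They were found for 3 members with PE in siNeg cells (Dusp2, Dusp4 and Dusp8), for 1 with PE in siSlc39a2 cells (Dusp4), for 1 with the knockdown alone (Dusp6) and for 2 with the knockdown under PE (Dusp2 and Dusp5). The corresponding shares of all genes tested were 6.60%, 10.5%, 9.78% and 11.6%. The interaction, which is the knockdown effect with PE less that without PE, passed the test for 2 members, Dusp2 and Dusp5, against 3.61% of all genes tested, and both interactions were negative. Dusp4, Dusp6 and Dusp16 were higher in all 4 comparisons, as were 8.26% of all genes tested, and Dusp1 was lower in all 4, as were 10.3%.

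**Figure D2:**
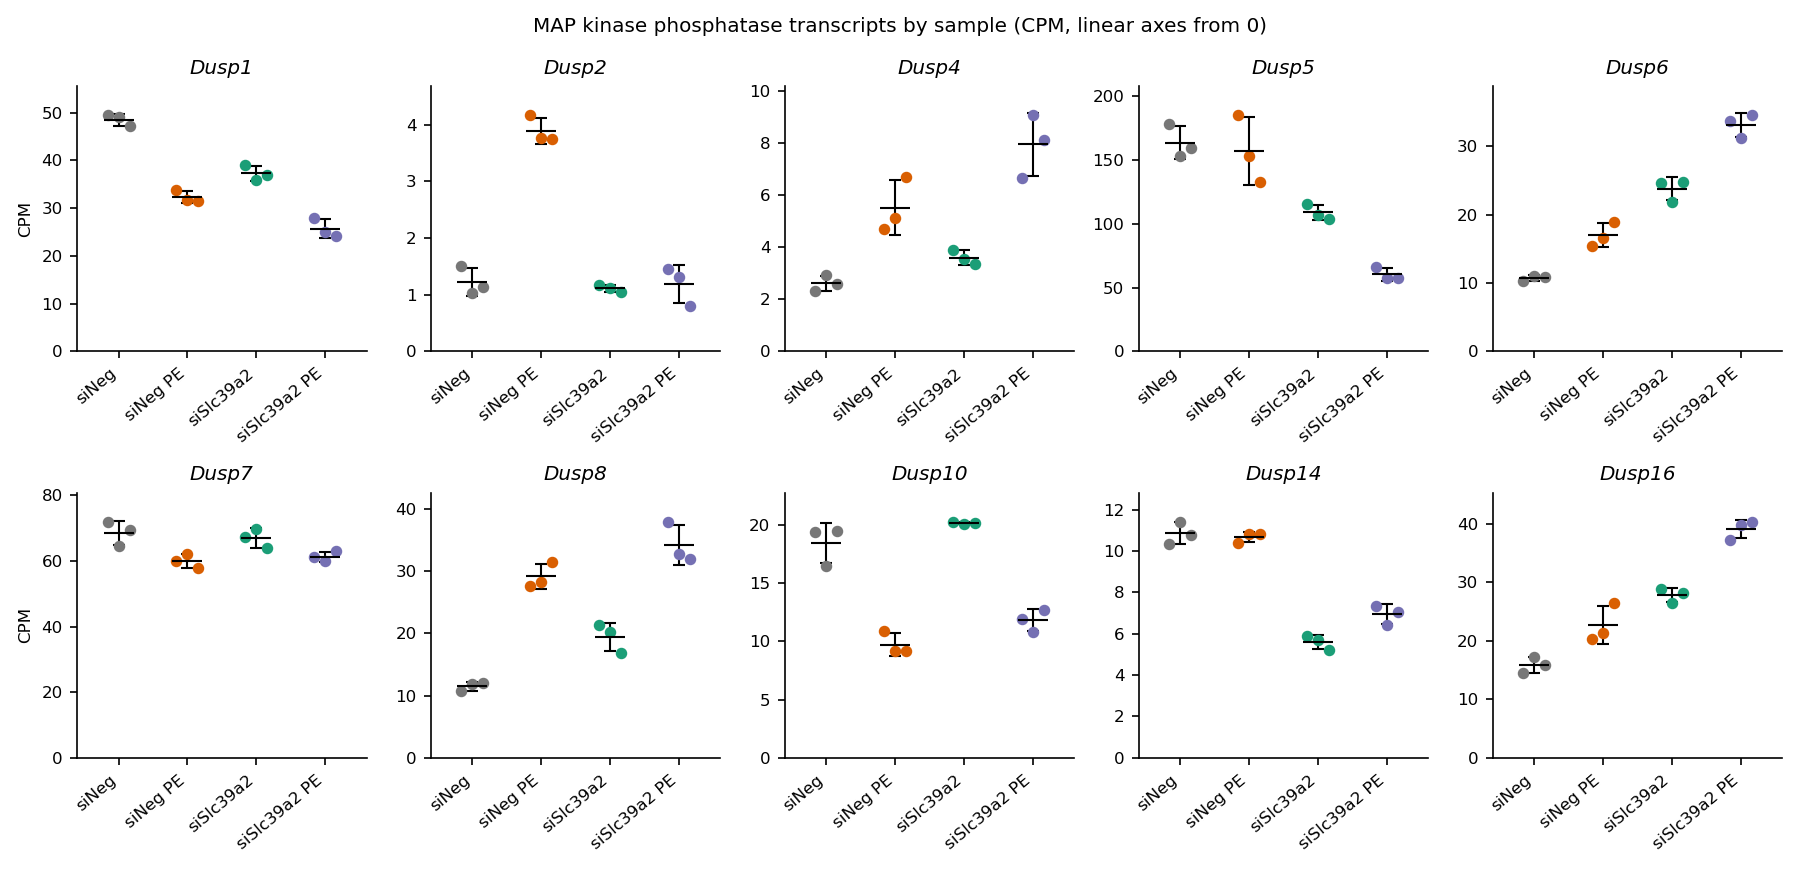
CPM of the 10 phosphatases in each of the 12 samples on linear axes that start at 0, with one panel per gene. Points are samples, black bars are group means and error bars are SDs (n = 3). Dusp2 is high in siNeg PE alone, at 3.74 to 4.16 CPM, and Dusp5 is low in siSlc39a2 PE, at 57.4 to 66.0 CPM.

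Dusp5, the nuclear ERK phosphatase, was the most abundant member and was lowest with both treatments together. Its CPM were 178, 153 and 159.7 in siNeg and 185, 154 and 133 in siNeg PE, so these groups overlapped. They were 116, 107 and 104 in siSlc39a2 and 66.0, 57.4 and 57.8 in siSlc39a2 PE, below every siNeg sample in both cases. PE did not move Dusp5 detectably in siNeg cells, with a log2 fold change of -0.06 (95% interval -0.29 to 0.17, adjusted p = 0.663 from edgeR). In siSlc39a2 cells PE lowered it by a log2 fold change of -0.85 ± 0.11 (SE, adjusted p = 4.07e-05). The knockdown lowered Dusp5 to 0.666 of its siNeg level without PE (log2 fold change -0.59 ± 0.11, SE, adjusted p = 0.000654). Under PE it lowered Dusp5 to 0.385 of the siNeg PE level (log2 fold change -1.38 ± 0.11, SE, adjusted p = 4.88e-07). The difference between the 2 knockdown effects, tested as the interaction, was -0.79 ± 0.15 on the log2 scale (SE, adjusted p = 0.0124), and it stayed below 0.05 in all 18 alternatives.

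The promoter of Dusp5 is shown because this gene carried one of the 2 interactions. It is the 250 bases before the RefSeq start of Dusp5 on rat assembly GRCr8, at chr1:262543524-262543773 on the plus strand, with matches to the motifs searched in capitals. They hold 2 CArG boxes, the serum response element that binds SRF, side by side at bases -82 to -73 and -72 to -63 before the start. They also hold a core of the cyclic AMP response element (TGACG or its complement) at -55 to -51 and an EGR site (GCGNGGGCG or its complement) at -172 to -164. Over the 33360 distinct RefSeq windows of this length, searched on both strands, a CArG box was found in 1.5%, this core in 18.2% and the EGR site in 4.30%.

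Dusp5: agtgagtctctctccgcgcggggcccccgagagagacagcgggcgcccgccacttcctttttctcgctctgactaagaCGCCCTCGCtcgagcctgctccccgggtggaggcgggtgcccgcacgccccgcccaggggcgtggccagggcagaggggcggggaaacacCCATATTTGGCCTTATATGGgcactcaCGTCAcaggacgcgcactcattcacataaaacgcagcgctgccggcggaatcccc

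Dusp2, an inducible nuclear phosphatase, had the lowest level of the 10 and rose with PE in siNeg cells. Its counts were 38, 27 and 29 in siNeg and 113, 107 and 102 in siNeg PE. In siSlc39a2 they were 34, 33 and 27, and in siSlc39a2 PE they were 39, 38 and 22. The siNeg PE samples thus stood apart from the other 9, which overlapped. In CPM this was 1.22 ± 0.25 (SD, n = 3), 3.89 ± 0.24, 1.12 ± 0.06 and 1.19 ± 0.34 in the same order of groups. PE raised Dusp2 3.18-fold in siNeg cells (log2 fold change 1.67 ± 0.22, SE, adjusted p = 8.41e-05 from edgeR). In siSlc39a2 cells the log2 fold change with PE was 0.09 (95% interval -0.42 to 0.60, adjusted p = 0.759). The knockdown without PE had a log2 fold change of -0.13 (95% interval -0.64 to 0.38, adjusted p = 0.673), and under PE it lowered Dusp2 to 0.306 of the siNeg PE level (-1.71 ± 0.22, SE, adjusted p = 3.31e-05). The interaction was -1.58 ± 0.32 on the log2 scale (SE, adjusted p = 0.0174). Its adjusted p was 0.0547 without siNeg replicate 2 and 0.0552 without siSlc39a2 replicate 1, with log2 values of -1.46 and -1.54, and it was below 0.05 in the other 16 alternatives. In limma on log2(FPKM + 1), a scale that understates changes of low genes, the log2 values were smaller, at 0.91 for PE in siNeg cells, -1.002 for the knockdown under PE and -0.92 for the interaction (adjusted p = 0.00634).

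The promoter window of Dusp2, the other member with an interaction, lies at chr3:135009386-135009635 of GRCr8 on the plus strand. It holds an EGR site at -112 to -104 and a core of the cyclic AMP response element at -9 to -5, both in capitals, and no CArG box.

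Dusp2: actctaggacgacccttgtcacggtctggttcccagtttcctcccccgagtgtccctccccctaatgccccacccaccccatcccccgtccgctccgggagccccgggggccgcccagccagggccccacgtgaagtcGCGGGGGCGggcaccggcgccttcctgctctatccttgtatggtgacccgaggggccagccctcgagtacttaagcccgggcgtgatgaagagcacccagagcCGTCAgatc

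Egr2, an immediate early transcription factor of the EGR family, was the gene whose pattern lay nearest to Dusp2. Likeness was measured as the root mean square difference of log2 CPM over the 12 samples after each gene was centred on its mean, over 11739 genes whose mean log2 CPM exceeded 1. The difference was 0.288 for Egr2, while Dusp2 itself varied by 0.761 about its mean. Egr2 had 7.31 ± 0.96 CPM (SD, n = 3) in siNeg and 18.7 ± 0.57 in siNeg PE, against 6.40 ± 1.18 in siSlc39a2 and 8.06 ± 0.48 in siSlc39a2 PE. Its samples were also high in siNeg PE alone, which follows from its choice as the gene nearest in pattern. Its log2 fold change with PE was 1.35 ± 0.13 (SE, adjusted p = 8.62e-06 from edgeR) in siNeg cells, and its interaction was -1.02 ± 0.19 (SE, adjusted p = 0.00924).

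Dusp8, which acts mainly on JNK and p38, rose with PE in both siRNA groups and with the knockdown alone. Its CPM were 10.7, 11.9 and 12.0 in siNeg and 27.7, 28.3 and 31.5 in siNeg PE, against 21.3, 20.2 and 16.9 in siSlc39a2 and 37.9, 32.8 and 32.0 in siSlc39a2 PE. None of these groups overlapped. PE raised Dusp8 2.53-fold in siNeg cells (log2 fold change 1.34 ± 0.11, SE, adjusted p = 1.32e-06 from edgeR) and 1.76-fold in siSlc39a2 cells (0.81 ± 0.10, SE, adjusted p = 3.15e-05). The knockdown raised it 1.69-fold without PE (0.76 ± 0.11, SE, adjusted p = 7.6e-05), and under PE its log2 fold change was 0.23 (95% interval 0.02 to 0.45, adjusted p = 0.0634). The interaction of -0.53 ± 0.15 on the log2 scale (SE) missed the threshold at an adjusted p of 0.0683. It passed in 4 alternatives, among them DESeq2 (adjusted p = 0.0169), the fit without siSlc39a2 PE replicate 1 (0.0335) and that without siSlc39a2 replicate 3 (0.0205). Under PE, the knockdown effect passed without siNeg PE replicate 3 (0.0462) or without siSlc39a2 PE replicate 3 (0.0489).

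**Figure D3:**
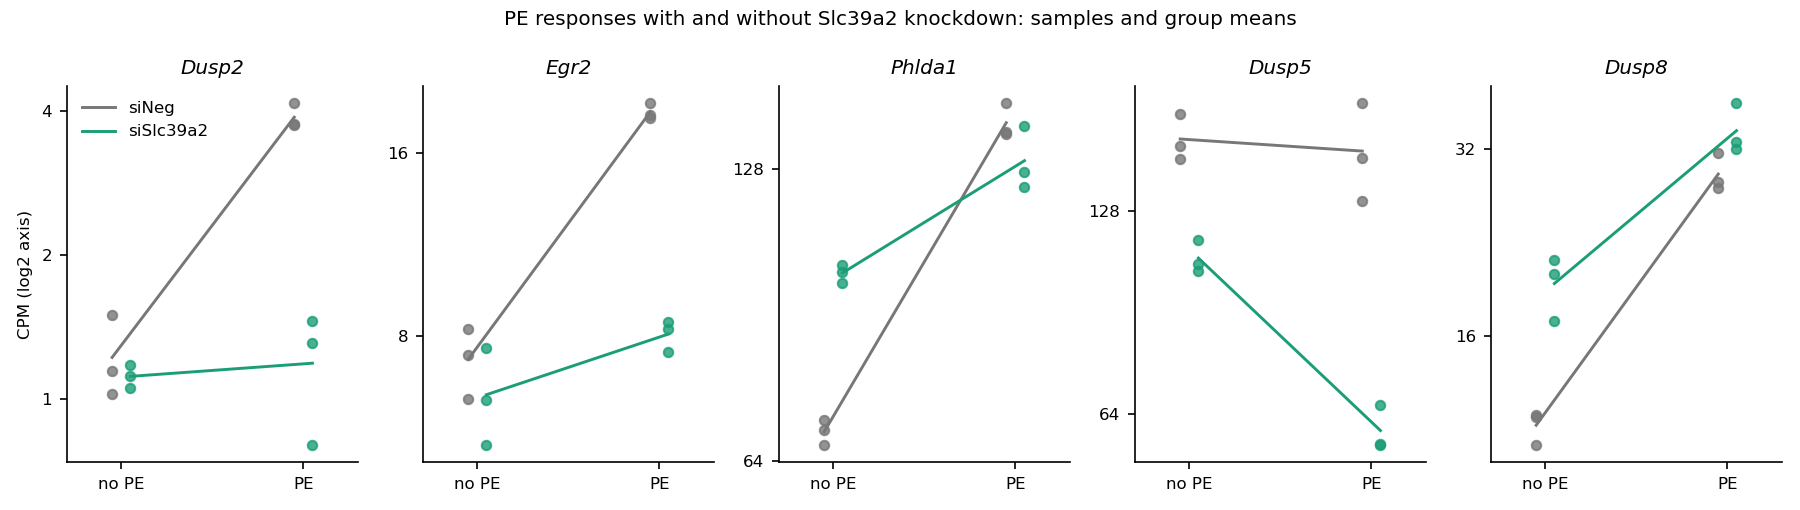
CPM on log2 axes without PE and with PE, with siNeg samples in grey, siSlc39a2 samples in green and lines joining the group means. Dusp2, Egr2 and Phlda1 rise less steeply with PE after the knockdown, with interactions of -1.58, -1.02 and -0.67 on the log2 scale, and Dusp5 falls with PE in siSlc39a2 cells alone; the Dusp8 interaction (adjusted p = 0.0683) did not pass the test.

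Dusp16, a phosphatase of JNK and p38, and Dusp6, a cytoplasmic phosphatase of ERK, rose with either treatment and were highest with both. Dusp16 had CPM of 14.5, 17.3 and 15.9 in siNeg and 20.3, 21.4 and 26.4 in siNeg PE, against 28.8, 26.5 and 28.1 in siSlc39a2 and 37.3, 39.7 and 40.3 in siSlc39a2 PE. Each group lay above the one before it without overlap. PE raised Dusp16 by a log2 fold change of 0.51 ± 0.10 (SE, adjusted p = 0.00157 from edgeR) in siNeg cells and 0.49 ± 0.10 (SE, adjusted p = 0.00102) in siSlc39a2 cells. The knockdown raised it by 0.81 ± 0.10 (SE, adjusted p = 3.37e-05) without PE and 0.79 ± 0.10 (SE, adjusted p = 3.11e-05) with PE. Its interaction was -0.02 on the log2 scale (95% interval -0.33 to 0.29).

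Dusp6 had CPM of 10.2, 11.1 and 11.0 in siNeg and 15.5, 16.6 and 18.9 in siNeg PE. The knockdown groups lay higher, at 24.7, 21.9 and 24.8 in siSlc39a2 and 33.7, 31.2 and 34.5 in siSlc39a2 PE. As with Dusp16, the 4 groups did not overlap. PE raised Dusp6 by a log2 fold change of 0.66 ± 0.09 (SE, adjusted p = 0.000143 from edgeR) in siNeg cells and 0.48 ± 0.09 (SE, adjusted p = 0.000574) in siSlc39a2 cells. The knockdown raised it 2.21-fold without PE (1.15 ± 0.09, SE, adjusted p = 5.63e-07) and 1.95-fold with PE (0.96 ± 0.09, SE, adjusted p = 1.98e-06). The interaction was -0.18 (95% interval -0.46 to 0.10).

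Promoter windows of Dusp6 and Dusp16 are shown because both genes rose in all 4 comparisons. That of Dusp6 lies at chr7:35979354-35979603 of GRCr8 on the plus strand and holds none of the motifs searched. That of Dusp16 lies at chr4:169361509-169361758 on the minus strand and holds a core of the cyclic AMP response element at -70 to -66 and an EGR site at -157 to -149, in capitals.
Dusp6: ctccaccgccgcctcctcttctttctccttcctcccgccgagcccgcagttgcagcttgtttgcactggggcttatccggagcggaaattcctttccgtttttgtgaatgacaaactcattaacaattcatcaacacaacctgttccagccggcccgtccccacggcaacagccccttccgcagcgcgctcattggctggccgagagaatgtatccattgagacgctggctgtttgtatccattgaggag
Dusp16: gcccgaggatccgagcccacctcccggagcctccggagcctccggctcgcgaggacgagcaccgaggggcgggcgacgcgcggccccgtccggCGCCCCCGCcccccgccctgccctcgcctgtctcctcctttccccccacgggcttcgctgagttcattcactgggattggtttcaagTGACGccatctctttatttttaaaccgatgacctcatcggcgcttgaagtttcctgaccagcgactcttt

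Dusp4, a nuclear inducible phosphatase, rose with PE in both siRNA groups. Its counts were low, at 59, 77 and 66 in siNeg and 128, 146 and 183 in siNeg PE, against 113, 105 and 86 in siSlc39a2 and 179, 263 and 224 in siSlc39a2 PE. In CPM these were 2.33, 2.92 and 2.60, then 4.72, 5.14 and 6.71, then 3.91, 3.56 and 3.35, and then 6.68, 9.07 and 8.14. Both PE groups lay above both untreated groups, and the 2 PE groups overlapped each other. PE raised Dusp4 2.11-fold in siNeg cells (log2 fold change 1.08 ± 0.17, SE, adjusted p = 0.000334 from edgeR) and 2.21-fold in siSlc39a2 cells (1.14 ± 0.16, SE, adjusted p = 9.5e-05).

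The rise of Dusp4 with the knockdown was smaller. It was 0.46 ± 0.18 on the log2 scale (SE, adjusted p = 0.0434 from edgeR) without PE and 0.53 ± 0.16 (SE, adjusted p = 0.0125) with PE. The call without PE was lost without siNeg replicate 1 (adjusted p = 0.131) or 3 (0.09), without siSlc39a2 replicate 1 (0.124) or 2 (0.076), and in limma on FPKM (0.0602 and 0.0527). With PE it was lost without siNeg PE replicate 1 (0.0563) or 2 (0.0508) or siSlc39a2 PE replicate 2 (0.0634).

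Dusp1, a nuclear phosphatase of ERK, JNK and p38, went the other way and was lowest with both treatments. Its CPM were 49.4, 49.0 and 47.1 in siNeg and 33.7, 31.6 and 31.5 in siNeg PE, against 38.9, 35.8 and 37.0 in siSlc39a2 and 27.9, 25.0 and 24.1 in siSlc39a2 PE. Again no groups overlapped. PE lowered Dusp1 to 0.665 of its level in siNeg cells (log2 fold change -0.59 ± 0.07, SE, adjusted p = 5.09e-05 from edgeR) and to 0.689 in siSlc39a2 cells (-0.54 ± 0.07, SE, adjusted p = 6.24e-05). The knockdown lowered it by log2 fold changes of -0.38 ± 0.07 (SE, adjusted p = 0.000817) without PE and -0.33 ± 0.07 (SE, adjusted p = 0.00201) with PE. The interaction was 0.05 (95% interval -0.17 to 0.27).

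The promoter window of Dusp1, the member that fell in all 4 comparisons, lies at chr10:17184603-17184852 of GRCr8 on the plus strand. It holds a full cyclic AMP response element, TGACGTCA, at -124 to -117, found in 1.59% of all windows, and a further core, TGACG, at -172 to -168, both in capitals.

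Dusp1: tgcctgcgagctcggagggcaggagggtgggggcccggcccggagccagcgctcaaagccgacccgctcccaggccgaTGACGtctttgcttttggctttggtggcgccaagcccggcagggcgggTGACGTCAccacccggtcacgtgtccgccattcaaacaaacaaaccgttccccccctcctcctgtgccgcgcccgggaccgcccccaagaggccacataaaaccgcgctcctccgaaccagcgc

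Dusp10, a phosphatase of JNK and p38, fell with PE. Its CPM were 19.4, 16.4 and 19.5 in siNeg and 10.9, 9.15 and 9.14 in siNeg PE, and they were 20.3, 20.0 and 20.2 in siSlc39a2 and 11.9, 10.8 and 12.7 in siSlc39a2 PE. The PE groups lay below both untreated groups. PE lowered Dusp10 to 0.527 of its siNeg level (log2 fold change -0.92 ± 0.10, SE, adjusted p = 2.05e-05 from edgeR) and to 0.585 of its siSlc39a2 level (-0.77 ± 0.10, SE, adjusted p = 4.14e-05). With the knockdown alone the log2 fold change was 0.13 (95% interval -0.08 to 0.34, adjusted p = 0.295), although these groups did not overlap. Under PE it was 0.28 ± 0.10 (SE, adjusted p = 0.0319), although the groups overlapped. That last call was lost without siNeg PE replicate 2 (adjusted p = 0.114) or 3 (0.106), without siSlc39a2 PE replicate 1 (0.0662) or 3 (0.111), with the groups fitted alone (0.0716) and in limma on FPKM (0.248 and 0.244).

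Dusp7, the other cytoplasmic ERK phosphatase, varied least of the 10, by 0.0944 on the log2 scale about its mean over the 12 samples. Its CPM were 64.6 to 71.9 in siNeg and 58.0 to 62.0 in siNeg PE, against 63.9 to 69.7 in siSlc39a2 and 59.9 to 62.9 in siSlc39a2 PE. With PE in siNeg cells the log2 fold change was -0.19 ± 0.06 (SE, adjusted p = 0.0239 from edgeR), a fall to 0.875 of the siNeg level. This call was lost without siNeg replicate 1 (adjusted p = 0.085) or 3 (0.0601), without siNeg PE replicate 3 (0.0932), without the filter on low counts (0.0772), with the groups fitted alone (0.0584) and in limma on FPKM (0.0792 and 0.0972). The log2 fold change with PE in siSlc39a2 cells was -0.13 (95% interval -0.27 to 0.01, adjusted p = 0.0987), and without siSlc39a2 replicate 3 it was -0.19 (adjusted p = 0.027). For the knockdown it was -0.03 (95% interval -0.17 to 0.10) without PE and 0.03 (95% interval -0.11 to 0.17) with PE.

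Dusp14, the atypical member whose reads were shared with another gene, fell with the knockdown. Its CPM were 10.3, 11.4 and 10.8 in siNeg and 10.4, 10.8 and 10.8 in siNeg PE, against 5.91, 5.69 and 5.22 in siSlc39a2 and 7.35, 6.42 and 7.05 in siSlc39a2 PE. All knockdown samples lay below all control samples. The knockdown lowered it to 0.517 of the siNeg level (log2 fold change -0.95 ± 0.10, SE, adjusted p = 4.78e-06 from edgeR) and to 0.649 of the siNeg PE level (-0.62 ± 0.10, SE, adjusted p = 0.000136). PE had a log2 fold change of -0.02 (95% interval -0.22 to 0.18) in siNeg cells and 0.31 ± 0.10 (SE, adjusted p = 0.0169) in siSlc39a2 cells. The rise in siSlc39a2 cells was lost without siSlc39a2 PE replicate 1 (adjusted p = 0.0811) or siSlc39a2 replicate 3 (0.0814), with the groups fitted alone (0.052) and in limma on FPKM (0.111 and 0.115).

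**Figure D4:**
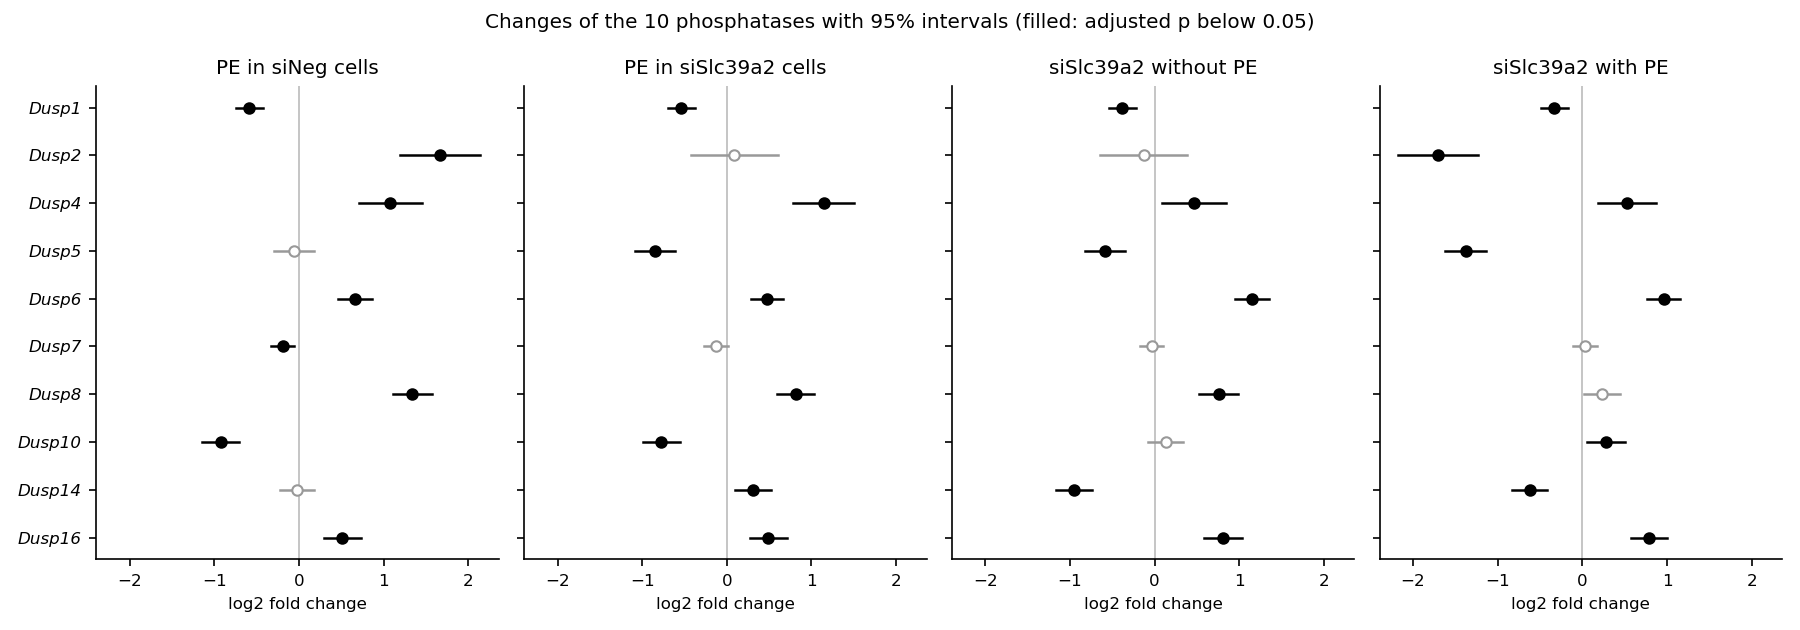
Log2 fold changes of the 10 phosphatases in the 4 comparisons, with edgeR's 95% intervals as lines and filled points where the adjusted p was below 0.05. Dusp2 lies at 1.67 with PE in siNeg cells and at -1.71 with the knockdown under PE, and Dusp4, Dusp6 and Dusp16 lie right of 0 in all 4 panels.

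Promoter windows were matched for 9 of the 10 members, all but Dusp4, with 3 windows for Dusp14. Besides those described, Dusp8 held an EGR site at -22 to -14, and the third window of Dusp14 held an AP-1 site (TGANTCA, in 6.35% of all windows) at -89 to -83 and a core of the cyclic AMP response element at -77 to -73. Dusp7 and Dusp10 held none of the motifs, and no member held the ETS site CCGGAAG, which was in 7.29% of all windows. A match describes letters in these windows and shows no binding.

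Among the other genes near each member in pattern over the 12 samples, Impdh1 lay 0.0537 from Dusp14 and Hnrnpf lay 0.0749 from Dusp16 in root mean square difference of centred log2 CPM. The nearest genes to Dusp5, Dusp6, Dusp8 and Dusp10 were Jak3, B4galt5, Gpx3 and Txnip, at 0.116, 0.108, 0.137 and 0.129. The nearest to Dusp4 was LOC100302372 at 0.140. Maz lay nearest to Dusp1 at 0.0466 and Shc1 nearest to Dusp7 at 0.0464, but neither had whole counts, so reads were split with other genes.

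The kinases upstream of these phosphatases were taken as lists. Beside the counts of these and the following lists stand the shares of all genes tested in edgeR. With PE, 24.0% rose and 25.7% fell in siNeg cells, and 30.7% rose and 29.3% fell in siSlc39a2 cells. With the knockdown, 22.8% rose and 26.4% fell without PE, and 29.2% rose and 28.1% fell with PE. The interaction passed the test for 3.61%. Of 14 tested genes of the ERK module, 3 rose and 5 fell with PE in siNeg cells, 3 rose and 6 fell with PE in siSlc39a2 cells, 3 rose and 2 fell with the knockdown alone, and 4 rose and 2 fell with the knockdown under PE. Their median log2 fold changes were -0.12, -0.08, 0.11 and 0.06. Mapk3, which encodes ERK1, was 251 ± 12.1 CPM (SD, n = 3) in siNeg and 195 ± 8.01 in siNeg PE, against 149.7 ± 11.9 in siSlc39a2 and 123 ± 7.90 in siSlc39a2 PE. Its log2 fold change with the knockdown was -0.75 ± 0.07 (SE, adjusted p = 2.99e-06 from edgeR) without PE. Map2k1, the kinase that activates ERK, moved the other way with the knockdown, from 91.0 ± 3.49 to 141 ± 1.71 CPM (SD, n = 3) without PE, a log2 fold change of 0.63 ± 0.05 (SE, adjusted p = 9.69e-07). No gene of the ERK module had an interaction at an adjusted p below 0.05 in edgeR, and the count was also 0 at an unadjusted p below 0.05, in DESeq2 and in limma.

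Of 22 tested genes of the p38 and JNK modules, 6 rose and 4 fell with PE in siNeg cells, 7 rose and 8 fell with PE in siSlc39a2 cells, 4 rose and 4 fell with the knockdown alone, and 6 rose and 6 fell with the knockdown under PE. Median log2 fold changes of this list were 0.11, -0.04, 0.10 and -0.02. Mapk8, which encodes JNK1, was 13.6 ± 1.01 CPM (SD, n = 3) in siNeg and 25.0 ± 1.42 in siNeg PE, against 19.4 ± 1.64 in siSlc39a2 and 38.01 ± 4.47 in siSlc39a2 PE, and so was highest with both treatments. Map2k6, which activates p38, was 10.5 ± 0.93, 5.23 ± 0.55, 3.96 ± 0.52 and 2.03 ± 0.17 CPM (SD, n = 3) in the same order, and was lowest with both. Map3k8, a kinase upstream of ERK and JNK, was the one gene of this list with an interaction, at -1.03 ± 0.19 on the log2 scale (SE, adjusted p = 0.00812 from edgeR). It was 2.40 ± 0.08, 3.69 ± 0.20, 7.02 ± 0.27 and 5.25 ± 0.79 CPM (SD, n = 3), so that PE raised it in siNeg cells and lowered it in siSlc39a2 cells. Of 10 kinases activated by MAP kinases, 1 rose and 4 fell in each PE comparison, 2 rose and 4 fell with the knockdown alone, and 3 rose and 4 fell with the knockdown under PE, with median log2 fold changes of -0.21, -0.19, -0.17 and -0.16.

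Of 13 tested genes listed as other inhibitors of ERK or receptor signalling, 8 rose and none fell with PE in siNeg cells in edgeR. Of these 13, 1 fell at an unadjusted p below 0.05, and 0 fell in DESeq2 or limma. With PE in siSlc39a2 cells, 8 rose and 1 fell. Whether ERK signalling induces each gene of this list was not tested. The knockdown raised 6 and lowered 1 without PE, and raised 6 and lowered 3 with PE. The medians were 0.27, 0.36, 0.25 and 0.12 on the log2 scale. Rgs2, which dampens signalling of Gq-coupled receptors, was 12.1 ± 1.02 CPM (SD, n = 3) in siNeg and 28.2 ± 3.21 in siNeg PE, against 20.6 ± 1.96 in siSlc39a2 and 54.8 ± 4.93 in siSlc39a2 PE. Spry4, an inhibitor of receptor tyrosine kinase signalling, rose with PE by a log2 fold change of 0.80 ± 0.07 (SE, adjusted p = 4.02e-06 from edgeR) in siNeg cells and 0.50 ± 0.07 (SE, adjusted p = 8.51e-05) in siSlc39a2 cells. Errfi1, an inhibitor of the EGF receptor, fell with the knockdown by log2 fold changes of -0.69 ± 0.08 (SE, adjusted p = 1.29e-05) without PE and -0.71 ± 0.08 (SE, adjusted p = 8.79e-06) with PE.

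Of 19 tested immediate early and growth genes that respond to ERK, 5 rose and 3 fell with PE in siNeg cells, 6 rose and 7 fell with PE in siSlc39a2 cells, 7 rose and 4 fell with the knockdown alone, and 6 rose and 6 fell with the knockdown under PE, with median log2 fold changes of 0.07, 0.13, 0.05 and -0.13. Interactions passed the test for 7 of the 19, with 5 negative and 2 positive, against 3.61% of all genes tested. Phlda1 had the smallest adjusted p, with an interaction of -0.67 ± 0.09 on the log2 scale (SE, adjusted p = 0.0012 from edgeR). It was 68.7 ± 2.03 CPM (SD, n = 3) in siNeg and 143 ± 5.89 in siNeg PE, against 100.0 ± 2.15 in siSlc39a2 and 131 ± 9.95 in siSlc39a2 PE. Srf, which encodes the factor that binds CArG boxes, had an interaction of 0.46 ± 0.08 (SE, adjusted p = 0.00551), with 259 ± 6.11, 207 ± 8.50, 192 ± 4.84 and 209 ± 8.42 CPM (SD, n = 3) in the same order. Ccnd1, a cyclin of G1 phase, rose with the knockdown by log2 fold changes of 1.10 ± 0.13 (SE, adjusted p = 1.94e-05) without PE and 1.18 ± 0.13 (SE, adjusted p = 9.15e-06) with PE. Fos had the smallest adjusted p of this list with the knockdown alone (1.41 ± 0.13, SE, adjusted p = 2.24e-06 from edgeR). Some counts of Fos were not whole, so reads were shared with other genes. The interactions of Fos and Myc were -0.82 ± 0.18 (SE, adjusted p = 0.0243) and 0.51 ± 0.11 (SE, adjusted p = 0.0237). How far these interactions held in the alternatives was not examined.

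Of 18 other dual-specificity phosphatases tested, 5 rose and none fell with the knockdown under PE in edgeR, while 1 fell at an unadjusted p below 0.05, 2 fell in limma and 0 in DESeq2. With PE, 6 rose and 5 fell in siNeg cells and 7 rose and 5 fell in siSlc39a2 cells, and 2 rose and 5 fell with the knockdown alone. The median log2 fold changes were -0.15 and -0.01 with PE and -0.18 and 0.18 with the knockdown. Interactions passed the test for 3 of the 18, Dusp3, Dusp15 and Dusp26, all positive, against 3.61% of all genes tested. Dusp27, an atypical muscle member without catalytic activity, rose with the knockdown by log2 fold changes of 0.74 ± 0.06 (SE, adjusted p = 7.39e-07 from edgeR) without PE and 0.79 ± 0.06 (SE, adjusted p = 3.43e-07) with PE, to 261 ± 6.76 CPM (SD, n = 3) in siSlc39a2 PE. Dusp3, a small phosphatase of ERK and JNK, rose with PE by 0.69 ± 0.07 (SE, adjusted p = 7.23e-06) in siNeg cells and 1.11 ± 0.07 (SE, adjusted p = 7.5e-08) in siSlc39a2 cells.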

How the data were processed

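RNA of NRVMs was sequenced by BGI in 12 samples of 4 groups. The authors deposited expected counts per gene, which are estimated counts without normalization in which multi-mapped reads are split, and FPKM values of the same 18483 genes. The submitters' processing notes name HISAT, Bowtie2 and the build Rnor 6.0 without tool versions, and the counting program and annotation are not given in the sources used here. Of the counts, 78.7% were whole numbers. Per the labels PE lasted 36 h, while the culture methods give a longer time, so samples were grouped by condition alone. No sample was a copy of another of its group, since counts of samples in the same group had a chi-square of 4.69 to 34.1 per degree of freedom. Samples of different groups were not compared in this way.

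Counts were rounded, 4516 genes were left out by filterByExpr of edgeR 4.0.16 (R 4.3.3), and the other 13967 were scaled by TMM factors and fitted together as 4 groups with 8 residual degrees of freedom. Contrasts were tested by edgeR's quasi-likelihood test, with p-values adjusted by Benjamini and Hochberg over all genes tested. A gene was called at an adjusted p below 0.05, and genes also past an absolute log2 fold change of 1, the threshold of the study's methods, were counted beside it. The standard error is the absolute log2 fold change divided by the square root of F. CPM were taken against the TMM-scaled library size. Alternatives were DESeq2 1.42.0, RLE size factors, no filter on low counts, the groups of each comparison fitted alone, the replicate number as a block, limma 3.58.1 on log2(FPKM + 1) and log2(FPKM + 0.1) after quantile normalization, and each sample left out in turn. The fits were tested on simulated data for the knockdown without PE alone, and the interaction was not tested in this way.

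The members and gene lists were chosen with earlier results of these data known. All 10 members were named, with up to 3 genes per other list and comparison with the smallest adjusted p, and the 1 gene nearest to each member in pattern. Promoter windows came from RefSeq (GRCr8), another build than that of the counts, and were linked to the members by gene ID. Depth limits the members with the fewest counts, Dusp2 and Dusp4, most.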

Additional observations from a re-analysis of the deposited data

Results flagged for a closer look

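For 2 phosphatases the knockdown effect differed between cells with and without PE by edgeR's interaction test. The knockdown effect with PE less that without PE was -1.58 on the log2 scale for Dusp2 (adjusted p = 0.0174), whose counts were between 22 and 39 in 9 of the 12 samples and between 102 and 113 in the 3 siNeg PE samples. It was -0.79 for Dusp5 (adjusted p = 0.0124), where both knockdown effects were negative and the one with PE was larger. What lies behind either difference was not tested.

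The same test passed for genes of the lists around them. Those given here had the smallest adjusted p for the interaction in their lists, so their passing follows from that choice. The interactions of Egr2, Phlda1 and Map3k8 were -1.02, -0.67 and -1.03 on the log2 scale, and that of Srf was 0.46. The adjusted p of these 4 was below 0.05 in all 18 alternatives, which for these genes were chosen after seeing the data. The interactions of Dusp3, Dusp15 and Dusp26 were 0.42, 0.89 and 1.25 (adjusted p = 0.0269, 0.0475 and 0.0303 from edgeR). They were lost in 10, 15 and 12 of the 18 alternatives, with the adjusted p reaching 0.0842, 0.131 and 0.0928. For Dusp3 this was so on leaving out any one sample but siNeg replicate 1, siNeg PE replicate 3 or siSlc39a2 PE replicate 3, for Dusp15 any but siNeg replicate 3, and for Dusp26 any but siNeg PE replicate 3 or siSlc39a2 PE replicate 3. Their log2 values over these fits were between 0.36 and 0.43, 0.76 and 1.01, and 1.13 and 1.32. With all samples kept, the 3 calls were also lost without the filter on low counts (adjusted p = 0.0663, 0.0663 and 0.0576 from edgeR). That of Dusp15 was lost with RLE size factors (0.0532) and in limma on FPKM (0.108 and 0.109, with log2 values of 0.45 and 0.80). That of Dusp26 was lost in DESeq2 (0.0766). Counts of Dusp26 were low, at 20 to 25 in siNeg and 35 to 38 in siNeg PE. They were 13 to 17 in siSlc39a2 and 48 to 57 in siSlc39a2 PE, so depth limits this gene as well.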

How the results depend on the processing

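Of 700 values of single members under the alternatives, 635 kept their direction and side of the threshold, 30 lost a call, 7 gained one and 28 changed sign. All that changed sign were values near 0 that had not passed the test. In limma on FPKM, with a pseudocount of 1 and 0.1 in turn, these were the interactions of Dusp1 (-0.0182 and -0.0264) and Dusp16 (0.0381 and 0.0221), Dusp2 with PE in siSlc39a2 cells (-0.0120 and -0.0464), Dusp5 with PE in siNeg cells (0.0530 and 0.0536), and Dusp7 with the knockdown under PE (-0.0149 and -0.0155). Dusp7 with the knockdown alone changed sign without the filter on low counts (0.0062). With each sample left out in turn, the ranges of log2 values that crossed 0 were -0.0548 to 0.0927 (Dusp1), -0.0386 to 0.23 (Dusp4), -0.0164 to 0.11 (Dusp7) and -0.0941 to 0.10 (Dusp16) for the interaction, -0.0989 to 0.31 for Dusp2 with PE in siSlc39a2 cells, -0.24 to 0.0446 for Dusp2 and -0.0764 to 0.0483 for Dusp7 with the knockdown alone, and -0.19 to 0.0510 for Dusp5 and -0.0547 to 0.0154 for Dusp14 with PE in siNeg cells. The number of members with an interaction was between 1 and 3, with 1 without siNeg replicate 2 or siSlc39a2 replicate 1. Over all genes tested, 504 had an interaction, but 831 in DESeq2, 805 in limma on log2(FPKM + 1), and between 255 and 537 with a sample left out. The cause of these shifts was not tested. Of 906 values of list genes, whose alternatives were chosen after seeing the data, 825 kept their call and 81 lost it.

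It is unclear whether the replicate numbers pair the samples. Correlations of same-numbered samples' deviations from their group means were between -0.0904 and 0.320, no comparison had all 3 above 0.1, and not every sample correlated best with its own number. With PE in siNeg cells they were 0.315, 0.0535 and 0.206, against means of -0.179, -0.0186 and -0.0861 with other numbers. The own number gave the lower value for replicate 2 with PE in siSlc39a2 cells (-0.0904 against 0.0455). So it did for replicate 1 with the knockdown alone (-0.0107 against 0.0058). With the replicate block, 8, 8, 7 and 8 members were called in the 4 comparisons, the same counts as without it, and 3 against 2 in the interaction, with Dusp8 added (-0.53, adjusted p = 0.0474 from edgeR). Over all genes, 1053 had an interaction with the block, against 504 without it. Among the members, depth limits Dusp2 most, at 22 to 39 counts in 9 samples.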
